A study of Mus musculus with 6 samples.

Results

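The genes described are the 7 writers and erasers of DNA methylation chosen by symbol as the Dnmt and Tet families with Uhrf1: the methyltransferase genes Dnmt1, Dnmt3a and Dnmt3b, the maintenance recruiter gene Uhrf1, and the dioxygenase genes Tet1, Tet2 and Tet3. All 7 were rows of the deposited table of 24063 symbols, and all 7 passed the filter on low counts. RNA was sequenced from mouse bone marrow LSK cells, the lineage-negative fraction with Kit and Sca1 on its surface, where blood stem cells and their first progeny are found. The series compared 3 libraries labelled knockout (floxed Arid2 with the MxCre transgene) with 3 control libraries (MxCre with wild-type Arid2), all on a C57/BL6 background. Every mouse, control mice included, carried MxCre and received pIpC, an interferon-inducing double-stranded RNA that switches on the Mx promoter, at 6 to 8 weeks of age. Bone marrow was taken 6 weeks later. The Mx promoter answers to interferon in many cell types, so deletion in such mice is not limited to blood cells.

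DNA methylation in mammals is placed mainly on cytosine in CpG dinucleotides. DNMT3A and DNMT3B set new methyl groups, and DNMT1 copies the pattern after replication at hemimethylated sites to which UHRF1 brings it. TET1, TET2 and TET3 oxidise 5-methylcytosine with 2-oxoglutarate as a co-substrate, which opens the way to its removal. In blood, DNMT3A and TET2 are known as regulators of stem cell self-renewal and differentiation whose genes are often mutated in myeloid disease.

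Upstream stretches of 3 of these genes are shown. Dnmt3b and Tet1 were the genes past the test below. Tet2 was added as a TET gene whose groups overlapped, as those of Tet3 also did. CpG dinucleotides, the substrate of the encoded enzymes, are in capitals. Each stretch begins 250 bases before an annotated start and ends where any annotated exon of the gene, or the start itself, begins. For Tet1 an exon cut the stretch to 62 bases, which do not reach the start. The Tet1 and Tet2 stretches lie within the gene spans given below. The Dnmt3b stretch (chr2:153649199-153649448, plus strand), the Tet1 stretch (chr10:62887513-62887574, minus strand) and the Tet2 stretch (chr3:133544391-133544640, minus strand) are from RefSeq on GRCm38.p6.
Dnmt3b: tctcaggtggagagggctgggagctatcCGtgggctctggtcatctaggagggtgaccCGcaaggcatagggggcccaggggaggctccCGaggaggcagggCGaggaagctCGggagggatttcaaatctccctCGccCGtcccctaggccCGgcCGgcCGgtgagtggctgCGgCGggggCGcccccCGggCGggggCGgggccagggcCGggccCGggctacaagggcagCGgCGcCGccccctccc
Tet1: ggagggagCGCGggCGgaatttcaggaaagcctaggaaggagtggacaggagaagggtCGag
Tet2: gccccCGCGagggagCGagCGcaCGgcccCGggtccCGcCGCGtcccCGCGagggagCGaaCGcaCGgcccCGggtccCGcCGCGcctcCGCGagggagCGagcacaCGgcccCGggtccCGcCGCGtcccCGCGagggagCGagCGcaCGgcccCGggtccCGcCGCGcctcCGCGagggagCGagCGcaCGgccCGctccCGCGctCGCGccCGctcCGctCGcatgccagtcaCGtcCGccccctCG

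RefSeq windows from 250 bases before to 50 bases after a start matched all 7 genes, with 12 starts in all. The Tet2 window held 57 CpG dinucleotides, more than 99.8% of the 32851 windows in the table, whose median was 7. The Dnmt3b window held 30 and the Tet1 window 17. The 3 Dnmt3a starts held 46, 47 and 18, Tet3 held 22, and the 2 Uhrf1 starts held 12 and 33. Dnmt1 ranged furthest among its own starts, with 33, 12 and 2. On either strand, GGGCGG, the core of a GC box, was found in 10 of the 12 windows, against 35.7% of all windows. The 10 touch all 7 genes, and the first 2 Dnmt3a windows, which overlap, were counted separately. GGGCGG itself holds a CpG, and most of the 12 windows held more CpG than the median window. Its share among windows of like CpG content was not computed. CCAAT was found in 5 of the 12, of Dnmt1, Tet3 and Uhrf1 (37.4% of all windows). Of 2 spellings of the E2F core, TTCCCGC was found at 1 Uhrf1 start (4.6% of all windows) and TTGGCGC at 1 Dnmt1 start (2.45%). The E-box CACGTG was found at 1 Dnmt3a start (7.15%), and the ETS core CCGGAAG at none of the 12 (8.86%). These are matches of letters and show no binding.

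On the mm10 assembly, GENCODE places Dnmt1 on chromosome 9 (20907209 to 20959888, minus strand), Uhrf1 on chromosome 17 (56303321 to 56323486, plus strand), Dnmt3a on chromosome 12 (3806007 to 3914443, plus strand) and Dnmt3b on chromosome 2 (153649450 to 153687730, plus strand). Tet1 lies on chromosome 10 (62804570 to 62908996), Tet2 on chromosome 3 (133463679 to 133545139) and Tet3 on chromosome 6 (83362373 to 83459084), all on the minus strand. Dnmt3a, Dnmt3b, Tet2 and Tet3 each overlap a noncoding gene on the opposite strand. If counting ignored strand, reads of such partners cannot be told apart from those of the gene.

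The libraries held 12408966 to 28185678 counted reads, and each of the 7 genes had at least 388 reads in every library. Arid2 counts did not differ by more than the spread between libraries (knockout-labelled 156.03 ± 6.15 against control 155.8 ± 8.46 CPM, SD, n = 3 each, edgeR adjusted p = 0.991). Counts summed over a whole gene do not resolve single exons. Loss of a floxed exon was not tested, and the groups are called by their labels. Xist and Y-linked counts place females in all 3 libraries labelled knockout and in control replicate 2, and males in control replicates 1 and 3. Sex and group therefore overlap, and any fit with a sex term rests on 1 female control library. Among genes of the sort gate, Kit was at 439 ± 11 against 557 ± 86.1 CPM (SD, n = 3 each) and Ly6a, which encodes Sca1, at 12.9, 15.3 and 12.4 against 18.2, 19.5 and 22.3 CPM (edgeR adjusted p = 0.0814 and 0.0378).

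Per length, transcripts of the maintenance genes were the most abundant of the 7 and Tet1 transcripts the least. CPM denotes read counts scaled to library size with TMM factors, and levels between genes are compared as CPM per kb of merged exons, over all 6 libraries. Dnmt1 ran from 80.8 to 94.3 CPM per kb (median 88.8) and Uhrf1 from 49.6 to 60.5 (median 56.0). Dnmt3b followed with 11.01 to 19.6 (median 14.7), Tet3 with 8.61 to 10.4 (median 9.35) and Dnmt3a with 7.45 to 9.58 (median 8.52). Tet2 ran from 3.24 to 4.46 (median 3.72), and Tet1 from 1.71 to 3.38 (median 2.34). Dnmt1, Uhrf1 and Dnmt3b did not overlap their neighbours in this order. Tet3 overlapped Dnmt3a and was above it in 4 of 6 libraries, and Tet2 overlapped Tet1 and was above it in 5 of 6. With the longest coding transcript as the length, Tet3 (mean 26.7 CPM per kb) moved ahead of Dnmt3b (17.7) and stayed above Dnmt3a (14.8), and Dnmt3b and Dnmt3a overlapped. Merged exons count 16.7 kb for Tet3 and its longest coding transcript 5.94 kb. The order Dnmt1, Uhrf1 first and Tet2, Tet1 last held with both lengths.

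**Figure D1:**
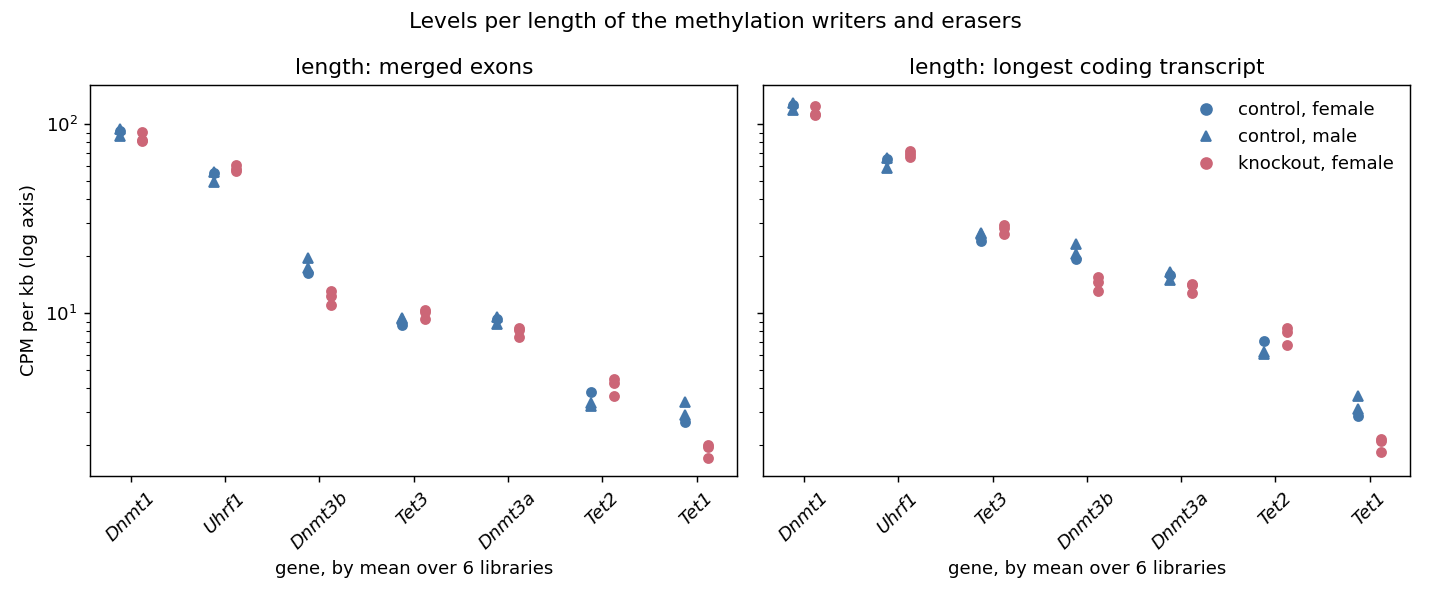
Level of each gene per length (CPM per kb, log axis) in every library, with genes ordered by their mean, for merged exons (left) and for the longest coding transcript (right). Points are libraries, blue for control and red for knockout, circles for female and triangles for male. Dnmt1 and Uhrf1 stand above the rest in both panels, Tet1 is at the bottom, and Tet3 changes place with Dnmt3b.

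The comparison of the groups asked which of these genes differ in expression between libraries labelled knockout and control. Dnmt3b and Tet1 were lower in the libraries labelled knockout, and the other 5 genes did not pass the test. That made 2 of 7 lower and 0 higher (edgeR, adjusted p under 0.05), where 4.58% of 13679 genes tested were called lower and 3.85% higher. At an unadjusted p under 0.05 there were 3 lower and 1 higher (24.9% of all genes in either direction). DESeq2 and limma-voom also called 2 of the 7, both lower. Over all 13679 genes tested, DESeq2 called 1668 and limma-voom 1102. In bulk RNA, fewer cells that express a gene and less RNA per cell cannot be told apart.

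Dnmt3b, the de novo methyltransferase gene best known from early embryos and primitive progenitors, was at 56.2, 63.0 and 67.0 CPM in the libraries labelled knockout and at 88.3, 82.9 and 100.2 CPM in controls 1 to 3. The highest of the first group was below the lowest control, which was the female one. The means were 62.1 ± 5.44 and 90.5 ± 8.81 CPM (SD, n = 3 each). The log2 fold change was -0.54 with an SE of 0.09 (edgeR adjusted p = 0.0132), a level of 68.6% of control with a 95% interval from 59.3% to 79.4%. Among all genes tested, 6.89% had a lower log2 fold change.

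Tet1, a TET gene whose protein carries a CXXC domain, was at 26.4, 30.3 and 31.1 CPM in the libraries labelled knockout and at 44.8, 41.3 and 52.2 CPM in controls 1 to 3. Again no library labelled knockout reached the lowest control, and that lowest control was again the female one. The means were 29.3 ± 2.52 and 46.1 ± 5.6 CPM (SD, n = 3 each), the log2 fold change -0.65 with an SE of 0.11 (edgeR adjusted p = 0.013). Tet1 thus stood at 63.7% of control, with a 95% interval from 53.5% to 75.8%.

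Neither call held with a sex term or without knockout replicate 2. With a sex term, Dnmt3b had a log2 fold change of -0.42 (95% interval -0.70 to -0.14, edgeR adjusted p = 0.23) and Tet1 of -0.50 (-0.82 to -0.17, adjusted p = 0.219). None of the 7 then passed, and 2 had an unadjusted p under 0.05, as did 1633 of the 13679 genes tested. After adjustment, 0.314% of all genes were called (0.0512% higher and 0.263% lower). Among female libraries alone, the 3 labelled knockout stayed below the single female control for both genes, at 56.2 to 67.0 against 82.9 CPM and 26.4 to 31.1 against 41.3 CPM. Without knockout replicate 2, the most deeply sequenced of its group, the edgeR adjusted p was 0.0591 for Dnmt3b and 0.0541 for Tet1. The log2 fold changes there, -0.55 and -0.68, were slightly larger in size than with all libraries. The edgeR adjusted p was 0.0452 and 0.0428 without control replicate 1, and 0.0418 and 0.0435 without knockout replicate 1. It was lower in the remaining fits with a library removed.

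Dnmt3b and Tet1 also tracked each other from library to library. Both had the same order over the 6 libraries, lowest in knockout replicate 1 and highest in control replicate 3. Across libraries, the level of Dnmt3b varied 1.78-fold and that of Tet1 1.98-fold, whereas the ratio of Tet1 to Dnmt3b CPM stayed between 0.465 and 0.521. After centring log2 CPM on each gene's mean, their root mean square difference was 0.06 over 6 libraries. No other gene of the 137 compared (the 7 genes and those of the related lists) was closer to either of them. The next for Dnmt3b were Peg13 and Kcnq1ot1, at 0.14 each, and for Tet1 Kcnq1ot1 (0.18) and Cxxc5 (0.18). This pair was looked at after its values were seen, and the libraries share depth, sex and group.

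**Figure D2:**
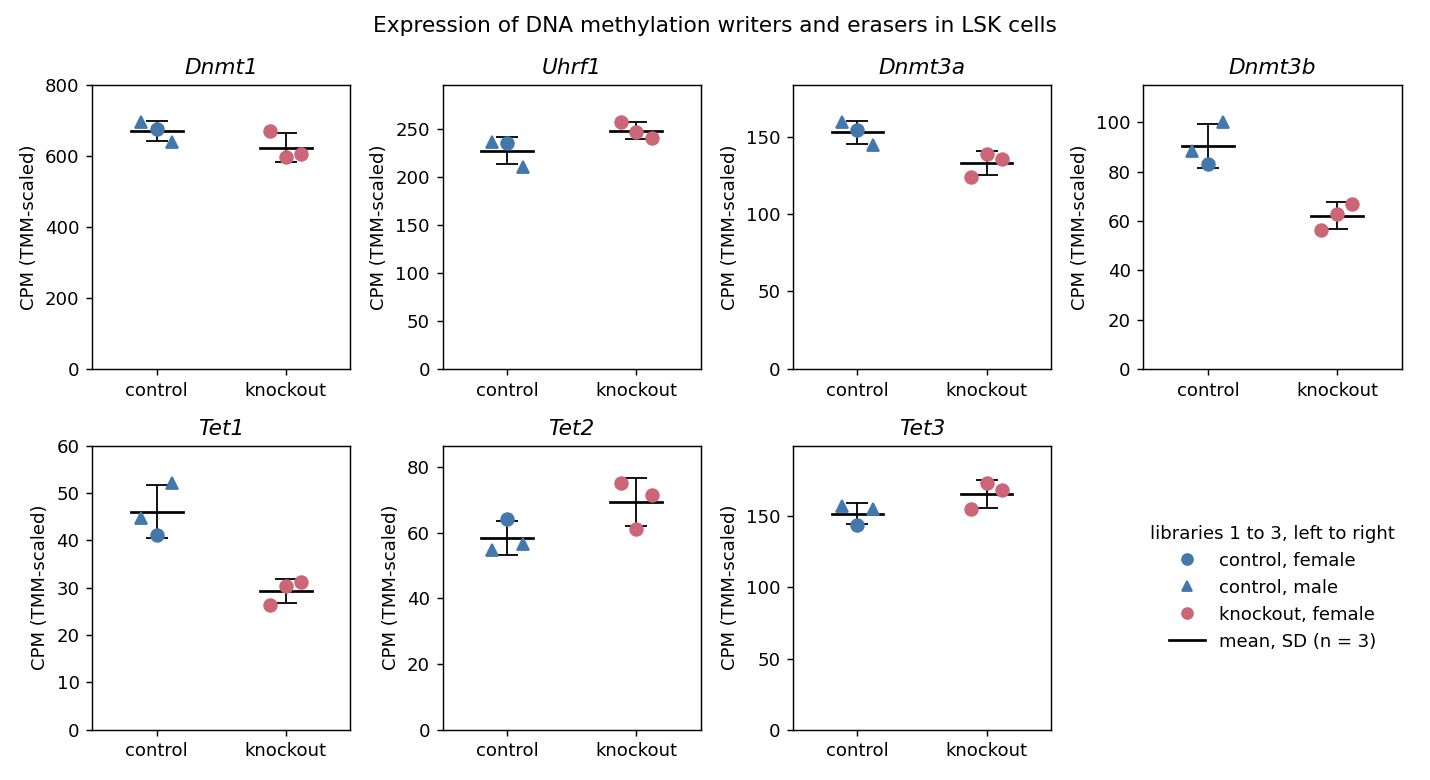
Expression of each gene in CPM (linear axis from 0) in the control and knockout-labelled libraries, with the mean and SD of 3 libraries as bars. Circles are female and triangles male libraries. For Dnmt3b and Tet1 all knockout-labelled points lie below all control points, while Dnmt1, Tet2 and Tet3 overlap.

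Dnmt3a, the main de novo methyltransferase gene of adult stem cells, did not pass the test. It was at 124, 139 and 136 CPM in the libraries labelled knockout and at 159, 155 and 145 CPM in controls 1 to 3, so the groups did not overlap. Its log2 fold change was -0.20 with an SE of 0.07 (edgeR adjusted p = 0.106), or 86.8% of control with a 95% interval from 77.9% to 96.7%. With the sex term it was -0.22 (adjusted p = 0.45).

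Dnmt1, the maintenance methyltransferase gene, was at 669, 596 and 606 CPM against 696, 675 and 641 CPM in controls 1 to 3. Knockout replicate 1 lay among the controls and the groups overlapped. The log2 fold change was -0.10 with an SE of 0.07 (edgeR adjusted p = 0.427), and the 95% interval of the ratio ran from 82.9% to 104.4%. Uhrf1, whose protein reads hemimethylated CpG, was at 258, 247 and 241 CPM against 237, 235 and 211 CPM. These groups did not overlap, with control replicate 3 the lowest library. The log2 fold change was 0.13 with an SE of 0.07 (edgeR adjusted p = 0.287, 95% interval of the ratio 98.2% to 121.3%).

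Tet2 was at 75.3, 61.1 and 71.7 CPM in the libraries labelled knockout and at 54.6, 64.4 and 56.5 CPM in controls 1 to 3. The groups overlapped, since the female control exceeded knockout replicate 2. Its log2 fold change of 0.24 (SE 0.10) did not pass (edgeR adjusted p = 0.166) and was 0.11 with the sex term. Tet3, the most abundant TET gene per length, was at 155, 174 and 168 CPM against 157, 144 and 155 CPM, with knockout replicate 1 among the controls. Its log2 fold change was 0.12 with an SE of 0.07 (edgeR adjusted p = 0.299) and 0.21 with the sex term (adjusted p = 0.45).

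Of the 7 genes, 3 were lower and 1 was higher with no overlap between the groups, where 16.1% and 15.1% of all genes tested were so placed. The share of non-overlapping genes over the whole table was thus 31.2%. Of the 5 genes not called, Dnmt3a had an interval of the ratio below 100% and Tet2 one above it (101.3% to 137.9%), before adjustment over all genes. The intervals of Dnmt1, Uhrf1 and Tet3 included no difference.

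**Figure D3:**
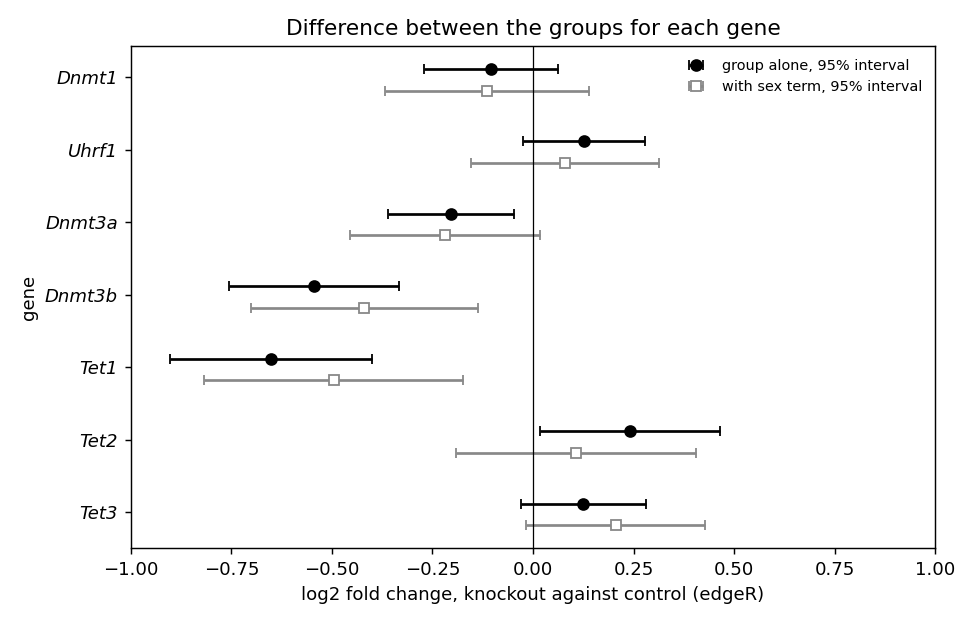
Log2 fold change of each gene, knockout-labelled against control libraries, from edgeR with group alone (filled circles) and with a sex term (open squares), each with its 95% interval. Dnmt3b and Tet1 lie at -0.54 and -0.65 with group alone and at -0.42 and -0.50 with the sex term, and the other genes lie nearer to 0.

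Ratios within a library do not depend on library scaling. The ratio of Uhrf1 to Dnmt1 CPM was 0.385, 0.415 and 0.397 in the libraries labelled knockout and 0.34, 0.348 and 0.329 in controls, a difference of 0.23 in mean log2 ratio (SD 0.05 and 0.04, n = 3 each). Dnmt3a to Dnmt3b was 2.21, 2.2 and 2.03 against 1.81, 1.86 and 1.45, a difference of 0.34 (SD 0.07 and 0.20). Both ratios were higher in every library labelled knockout than in any control. Among the controls, the female one, replicate 2, had the highest value of both. Tet2 to Tet3 was 0.486, 0.352 and 0.425 against 0.348, 0.448 and 0.364, and overlapped. Summed Dnmt to summed Tet CPM was 3.31, 3.01 and 2.98 against 3.68, 3.66 and 3.36, lower without overlap. No test was run on these ratios, and the share of other gene pairs so placed was not computed. Of single genes tested, 31.2% did not overlap between the groups.

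The make-up of each family was then expressed as shares of its summed CPM per kb of merged exons, a measure added after the values were seen. Tet1 made up 11.1%, 12.3% and 12.3% of TET transcripts in the libraries labelled knockout and 18.6%, 17.7% and 21.1% in controls. With the longest coding transcript these shares were 5.07%, 5.54% and 5.64% against 8.74%, 8.4% and 10.1%, so their size depends on the length while the groups stayed apart with both. Tet3 supplied the largest share in both groups, 62.3% ± 2.55 against 58.5% ± 1.81, and Tet2 25.8% ± 3.11 against 22.3% ± 2.54 (SD, n = 3 each). The TET sum itself was 15.9 ± 0.453 against 15.6 ± 0.462 CPM per kb, a smaller gap than the spread between libraries. This depended on the length: with the longest coding transcript the TET sum was 37.6 ± 1.18 against 35.3 ± 0.953 CPM per kb, higher in the libraries labelled knockout without overlap. Dnmt3b made up 11.6% ± 1.37 of DNMT transcripts against 15.1% ± 1.72, and Dnmt1 80.7% ± 2.06 against 77.1% ± 1.51. The Dnmt sum was 105 ± 4 against 118 ± 3.1 CPM per kb.

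Some cell type markers also differed between the groups, where 3.85% of all genes tested were called higher and 4.58% lower. Summed levels overlapped between the groups for the erythroblast, the mast cell and basophil, and the B and plasma cell lists. Of 12 mature neutrophil genes 5 were higher (Cd177, Ltf, Lcn2, Ifitm6 and Ngp), with a summed level of 7190 to 9211 CPM in the libraries labelled knockout against 2979 to 5755 CPM in controls. Of 12 monocyte and macrophage genes 6 were higher (Marco, Lyz2, Cd14, Ccr2, Csf1r and Cd68), with sums of 2702 to 3231 against 1547 to 1895 CPM. Of 10 erythroblast genes 5 were higher (Hbb-bs, Hba-a1, Alas2, Hbb-bt and Slc4a1), with sums of 271 to 577 against 197 to 315 CPM. Of 5 mast cell and basophil genes tested, Cpa3 and Mcpt8 were lower, with sums of 140 to 275 against 195 to 547 CPM over the 7 listed. T and NK cell genes had 1 of 8 lower (Lat), with sums of 49.0 to 52.9 against 67.4 to 80.4 CPM. B and plasma cell genes had 1 of 7 lower (Cd79b), with sums of 633 to 846 against 468 to 719 CPM. The other 6 B and plasma cell genes had positive log2 fold changes without passing (list median 0.40). With the sex term, Cd79b alone of these called markers passed (edgeR adjusted p = 0.0487). Of the 6 fits with a library removed, Ngp, Csf1r, Cd68, Slc4a1 and Mcpt8 passed in 2 and Cpa3 in 4, and the other called markers in 6. No marker of these lists was without reads in all libraries. Their part in the levels of Dnmt3b and Tet1 was not tested.

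Around the 7 genes, 11 lists of related genes held 154 symbols, of which 131 were tested. In all, 4 rose, 6 fell and 121 did not pass, or 7.63% called where 8.42% of all genes tested were. With the sex term all 10 kept their direction and none passed (adjusted p from 0.0945 to 0.477). At an unadjusted p under 0.05 that fit held 12 of the 131, and 1633 of all 13679 genes tested. Of the 6 fits with a library removed, Cdca7 and E2f2 passed in 6, Ccne1 in 4, Kcnq1ot1 in 3, Idh2, Gadd45b and Rrm2 in 2, Ehmt1 and Cxxc5 in 1 and Peg13 in 0.

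Among 12 cofactors of methylation maintenance, 1 fell and 11 did not pass by edgeR (median log2 fold change -0.06, against 0.00 over all genes tested). DESeq2 called 3 and limma-voom 2. The gene that fell was Cdca7, whose protein recruits the remodeller HELLS, at 185, 180 and 177 CPM against 242, 246 and 230 CPM. No library overlapped, and the log2 fold change was -0.41 with an SE of 0.06 (edgeR adjusted p = 0.0068). Hells itself had -0.04, the UHRF1 relative Uhrf2 had -0.02 and the replication clamp gene Pcna 0.05. Zfp57, which guards methylation at imprinted regions, had 1.10 at 8.84 ± 2.38 against 4.14 ± 1.75 CPM and did not pass (edgeR adjusted p = 0.0753).

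Of 10 tested de novo partners and other Dnmt genes, 1 fell and 9 did not pass by edgeR (median -0.05), and DESeq2 and limma-voom called 1 each. Ehmt1, which encodes the H3K9 methyltransferase GLP, was at 96.8, 96.7 and 96.9 CPM against 122, 119 and 110 CPM (log2 fold change -0.27, edgeR adjusted p = 0.0333). In CPM, which takes no account of length, the family's other tested members lay below the 7 genes. Dnmt3l, the catalytically inactive cofactor, was at 1.62 ± 0.0173 against 1.18 ± 0.763 CPM, and the tRNA methyltransferase gene Trdmt1 at 13.0 ± 2.22 against 14.3 ± 1.05 CPM (SD, n = 3 each).

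TET partners and the supply of 2-oxoglutarate had 1 higher, 2 lower and 7 not called by edgeR of 10 tested (median 0.04), and DESeq2 and limma-voom called 3 each. Idh2, the mitochondrial isocitrate dehydrogenase that makes 2-oxoglutarate, was at 233, 234 and 206 CPM against 311, 296 and 277 CPM (log2 fold change -0.39, edgeR adjusted p = 0.0194). Its cytosolic relative Idh1 had 0.35 and did not pass (edgeR adjusted p = 0.314). Cxxc5, a CXXC protein that can bind and destabilise TET2, was at 69.2 ± 9.08 against 96.4 ± 9.93 CPM (-0.47, edgeR adjusted p = 0.0377). Gadd45b, a stress-response gene linked to demethylation, was at 40.0 ± 5.76 against 25.8 ± 4.93 CPM (0.63, edgeR adjusted p = 0.0449).

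Steps after oxidation, readers and methyl donor supply held no call by edgeR. Of 11 base excision repair genes, 1 had an unadjusted p under 0.05 and DESeq2 called 1. Apex1, the abasic site endonuclease, had -0.23 (edgeR adjusted p = 0.0542) and Parp1 -0.14, and the list a median of -0.07. Of 7 methyl-CpG readers, 1 had an unadjusted p under 0.05 and DESeq2 called 1. Mbd2, a NuRD-linked reader, had 0.22 (edgeR adjusted p = 0.0728) and Zbtb38 -0.14. The 6 CXXC-type binders of unmethylated CpG had 0 with an unadjusted p under 0.05 and 0 by DESeq2 or limma-voom, with Fbxl19 at -0.14 and Kmt2b at -0.07. Of 12 methyl donor genes 2 had an unadjusted p under 0.05 and DESeq2 and limma-voom called 0. Shmt1 had -0.20 and Mtr, methionine synthase, -0.16.

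Genes that DNA methylation is known to keep silent were examined next. Of 16 germline genes with methylated promoters in somatic cells, 13 were too low to test, with at most 43 reads over all 6 libraries, and Asz1 had none. The list summed to 13.5 to 18.02 CPM in the libraries labelled knockout and 10.8 to 14.1 CPM in controls. Of the 3 tested, Ddx4 had a log2 fold change of 0.34 at 10.9 ± 2.71 against 8.68 ± 1.28 CPM, Piwil2 0.41 and Sycp3 -0.11. None of the 3 passed with edgeR, DESeq2 or limma-voom, and 0 had an unadjusted p under 0.05.

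Imprinted genes, expressed from 1 parental allele, had 2 lower and 13 not called by edgeR of 15 tested (median 0.07), and DESeq2 called 4. Kcnq1ot1, the long noncoding RNA of the Kcnq1 domain, was at 65.5, 55.0 and 70.5 CPM against 97.2, 84.5 and 91.4 CPM (log2 fold change -0.52, edgeR adjusted p = 0.0195). It lies antisense to Kcnq1, and the strand setting of the counting is unknown here. Peg13, a noncoding RNA inside Trappc9, was at 75.4 ± 3.38 against 94.9 ± 9.94 CPM (-0.33, edgeR adjusted p = 0.0472). Dlk1 had -2.06 and Meg3 of the same domain -1.26, both under 5 CPM in every library and neither past the test (edgeR adjusted p = 0.051 and 0.0792).

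Cell cycle genes were listed because Dnmt1 and Uhrf1 are made mainly in cycling cells. Of 25 S phase genes 3 rose and 22 did not pass by edgeR (median 0.00), and DESeq2 called 4. Those that rose were E2f2, an E2F activator, at 93.2 ± 13.5 against 52.5 ± 3.24 CPM (log2 fold change 0.83, edgeR adjusted p = 0.00492), the cyclin gene Ccne1 (0.68, adjusted p = 0.0165) and the ribonucleotide reductase gene Rrm2 (0.46, adjusted p = 0.0307). Over the S phase list, 13 genes had positive and 12 negative log2 fold changes. At an unadjusted p under 0.05 (edgeR) 3 were higher and 3 lower. Of 20 G2 and M phase genes none passed by edgeR, DESeq2 or limma-voom and 1 had an unadjusted p under 0.05. Ccnb1 had 0.21, Aurka 0.19 and the list a median of 0.10. The related genes nearest in centred profile to Uhrf1 were Aurkb and Slbp (root mean square difference 0.03 and 0.04), to Dnmt1 Zbtb38 and Mcm3 (0.03 and 0.04) and to Tet3 E2f1 and Mbd2 (0.03 and 0.07). Apex1 and Zbtb24 were nearest to Dnmt3a (0.04 and 0.06), and Bub1 and Ccnb1 to Tet2 (0.08 and 0.09). For genes that vary little, any flat gene lies near by this measure.

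**Figure D4:**
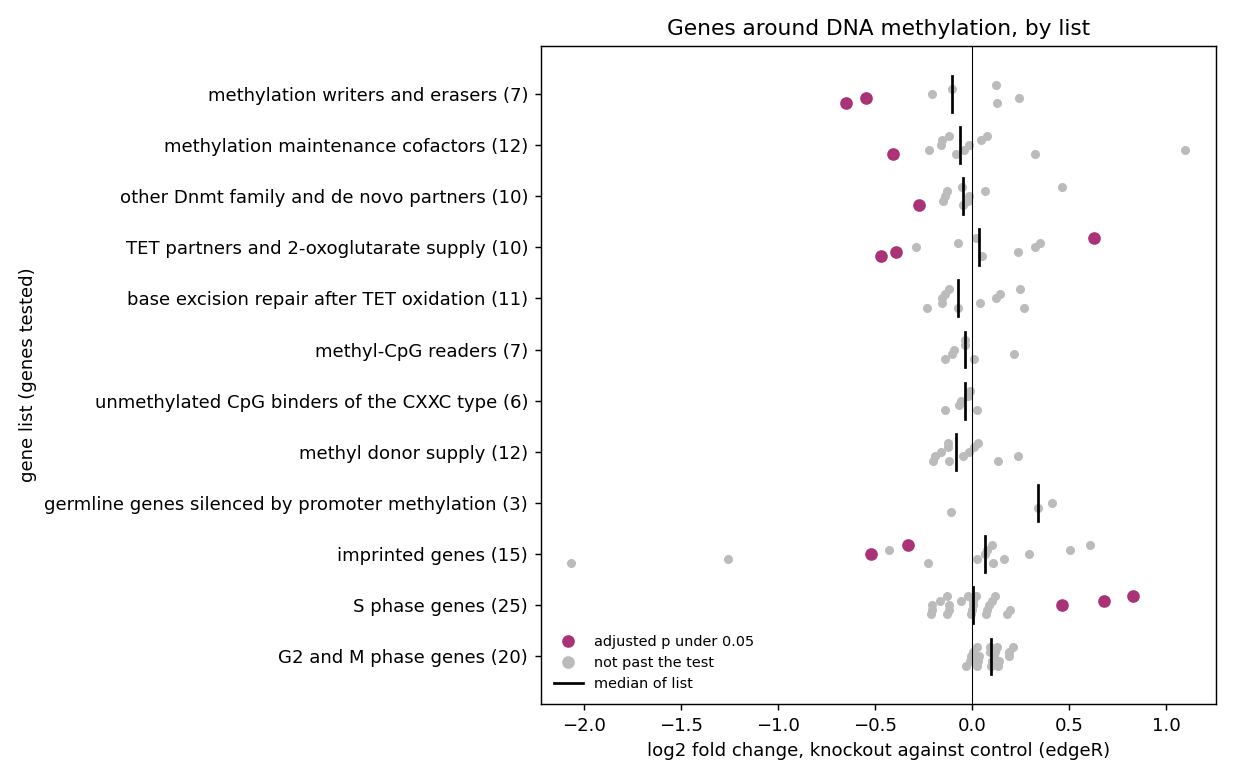
Log2 fold change of every tested gene of the methylation writers and erasers and of the 11 related lists, knockout-labelled against control libraries. Purple points passed the edgeR test (adjusted p under 0.05), grey points did not, and black bars are list medians. Dnmt3b and Tet1 are the 2 purple points of the top row, and most list medians lie near 0.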

How the data were processed

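Gene expression was measured by RNA sequencing of LSK cells in 6 libraries, 3 per group. The authors deposited raw read counts per gene symbol as whole numbers without normalization, and the submitters' processing notes name STAR and mm10. The aligner's version, the counter, the annotation and its strand setting were "not given in the sources used here". Reads of overlapping or antisense genes may therefore have been shared. Per the labels' protocols, RNA was poly(A)-selected and the kit kept strand. Nothing in the labels says that replicates were separate animals. The male and female controls came from different animals, but the number of animals per group is not known. P-values then reflect only library-to-library spread, part of it possibly technical. No 2 libraries agreed within sampling noise (chi-square per degree of freedom at least 10.7).

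The test over all genes was run on the counts with edgeR 4.0.16 (R 4.3.3): filterByExpr (minimum count 10, minimum total 15), TMM scaling, quasi-likelihood F test with group as the sole term, Benjamini-Hochberg adjustment over 13679 genes and a threshold of 0.05. SE is the absolute log2 fold change over the square root of F, and 95% intervals use the test's degrees of freedom. Lengths are from GENCODE M21 on the same assembly. List symbols missing from the table were matched through RefSeq synonyms, and Dnmt3c was not analysed here. Sex was read from Xist and Y-linked counts.

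The genes, lists and tests were chosen with earlier results of these data known. Named genes are the 7 genes, Arid2, up to 4 called genes of each related list or else the 2 with the smallest p, called marker genes, and for each of the 7 the 2 nearest list genes. Sort gate genes, Hells, Uhrf2, Pcna, Zfp57, Dnmt3l, Trdmt1, Idh1, Asz1, Sycp3, Dlk1 and Meg3 were named outside that rule, after their values were seen. On simulated counts for this comparison (13565 genes), edgeR recovered 81% of 2-fold and 92% of 4-fold changes, with 15 false calls among 188. The differences of the 7 genes were smaller than 2-fold, and no sex difference was simulated, so these figures do not carry over to them. Alternatives were other scaling and filters, DESeq2 1.42.0, limma-voom (limma 3.58.1), a replicate block, a sex term and each library left out, and, added after seeing the data, female libraries alone.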

Additional observations from a re-analysis of the deposited data

How the results depend on the processing

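Under all 15 other fits each of the 7 genes kept its direction, and Dnmt3b and Tet1 stayed past the threshold under DESeq2 size factors, upper-quartile scaling, both other filters, DESeq2, limma-voom and the replicate block. With the sex term and with female libraries alone, 0 of the 7 passed. There Dnmt3b had log2 fold changes of -0.42 (edgeR adjusted p = 0.23 and 0.182) and Tet1 of -0.50 (0.219 and 0.163), and 43 and 39 genes of the whole table were called, against 1152. Female libraries alone leave 1 control, which is assumed to vary like the knockout-labelled libraries. These fits have fewer degrees of freedom, and why they hold fewer calls was not tested.

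Leaving out each library in turn gave log2 fold changes of -0.60 to -0.47 for Dnmt3b, -0.72 to -0.55 for Tet1, -0.24 to -0.16 for Dnmt3a, -0.16 to -0.07 for Dnmt1, 0.07 to 0.16 for Uhrf1, 0.18 to 0.33 for Tet2 and 0.09 to 0.17 for Tet3. The 7 genes then held 0 to 2 calls, 0 only without knockout replicate 2, and all genes together 290 to 984. Without knockout replicate 2, 290 genes were called, without control replicate 1 473, without knockout replicate 3 508 and without knockout replicate 1 530.

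With the replicate number as a block, 2172 genes were called and the 7 genes still held 2. The numbers pair the libraries only in part: deviations of libraries with the same number correlated at 0.394, 0.00552 and 0.405 for replicates 1 to 3, and replicate 2 did not correlate best with its own number. They were treated as sharing only a number. At an adjusted p under 0.1, 2002 genes passed and still 2 of the 7. A fixed length shifts the ratio of 2 genes alike in every library, so its group difference cannot change per kb. The ratio of summed Dnmt to summed Tet can change. Its difference in mean log2 was -0.202 with CPM, -0.205 per kb of merged exons and -0.256 per kb of the longest coding transcript. The germline list's median, over 3 genes, was 0.57 with the sex term against 0.34. The lowest read count of any of the 7 genes in a library was 388. What depth and the number of libraries each add to the width of the intervals was not tested.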
